A study of Drosophila melanogaster with 2 samples.

Results

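The snoRNA and snRNA genes of Drosophila melanogaster were examined for binding by CG7101, a fly protein tagged with green fluorescent protein (GFP). They were all genes with the biotype snoRNA or snRNA on the main chromosome arms of the Ensembl annotation, 301 of 18164 genes, of which 269 were snoRNA genes and 32 were snRNA genes. A gene was counted as near a peak when a peak summit lay within 500 bp of any base of the gene. Of these genes, 258 lay inside a larger gene on the same strand, called the host, and 43 were stand-alone. The 258 hosted genes sat in 97 hosts, 239 of them in an intron and 19 overlapping a host exon. Among the 43 stand-alone genes, 27 lay outside any larger gene and 16 lay inside a gene of the opposite strand.

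The measurement was chromatin immunoprecipitation and sequencing (ChIP-seq) with an antibody against GFP in whole adult females of a transgenic line that stably expresses CG7101 with GFP at its C-terminus. There was 1 group of 2 biological replicates, of unknown age, so no comparison between conditions was possible, and the values describe where peaks lay. Whole flies mix all cell types, and the labels give neither the promoter that drives the tagged protein nor whether the flies' own CG7101 was also present. The lists were one of 6486 peaks that passed an irreproducible discovery rate (IDR) step, called IDR peaks here, one of 30000 peaks from the pooled replicates, and one of 30000 peaks from each replicate. Signal is the peak strength written by the authors' peak caller, on a scale that no source used here states. It ran from 142 to 11013 in the IDR list, with a median of 245, and its lowest value was 27.5 in the pooled list, 16.8 in replicate 1 and 14.9 in replicate 2. A gene listed with no summit therefore had none above those values, which does not show that the protein was absent. The read depth is unknown from peak lists.

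Most kinds of small nuclear RNA (snRNA) are RNA parts of the spliceosome. U7 instead acts in histone mRNA processing, and 7SK holds the elongation factor P-TEFb inactive. Their genes have their own short promoters with a proximal sequence element (PSEA in flies), read by the complex of Pbp95, Pbp49 and Pbp45, and are transcribed by RNA polymerase II or, for U6, U6atac and 7SK, by RNA polymerase III. Small nucleolar RNAs (snoRNAs) guide 2'-O-methylation (box C/D) or pseudouridylation (box H/ACA) of other RNAs, and in flies most are cut from introns of host genes, so that the host promoter makes them. Many hosts encode ribosomal proteins, and others are noncoding Uhg genes, whose introns carry the snoRNAs.

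The upstream regions of the snRNA genes are shown because an snRNA gene's own promoter is where a peak of its own would be looked for. Each runs from 80 bases before the first base of the RNA to base 10 of the RNA, read from the RefSeq Release 6 assembly (dm6). Capitals mark TTCCCAA or TTCTCAA, letters of the PSEA. The 7 genes with an IDR summit within 500 bp are given first:
snRNA:7SKa (chr3R:7474987-7475076, minus strand): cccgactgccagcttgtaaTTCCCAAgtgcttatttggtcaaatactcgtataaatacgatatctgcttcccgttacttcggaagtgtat
snRNA:U2:34ABb (chr2L:13215759-13215848, plus strand): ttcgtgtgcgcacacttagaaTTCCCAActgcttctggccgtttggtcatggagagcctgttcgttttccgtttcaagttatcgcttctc
snRNA:U6:96Ab (chr3R:24556612-24556701, plus strand): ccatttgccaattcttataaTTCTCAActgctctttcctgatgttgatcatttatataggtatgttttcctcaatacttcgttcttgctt
snRNA:U6:96Ac (chr3R:24557135-24557224, plus strand): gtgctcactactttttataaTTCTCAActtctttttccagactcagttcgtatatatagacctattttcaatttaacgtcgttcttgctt
snRNA:U5:63BC (chr3L:3090721-3090810, plus strand): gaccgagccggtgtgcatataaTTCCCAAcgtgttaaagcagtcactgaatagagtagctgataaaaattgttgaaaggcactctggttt
snRNA:U4:39B (chr2L:21215169-21215258, minus strand): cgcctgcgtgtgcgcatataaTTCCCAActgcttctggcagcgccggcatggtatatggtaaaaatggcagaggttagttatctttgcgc
snRNA:U1:95Ca (chr3R:23859621-23859710, minus strand): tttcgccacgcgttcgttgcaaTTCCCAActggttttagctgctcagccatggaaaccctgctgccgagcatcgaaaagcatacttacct

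For comparison, a gene of each of the same RNA kinds with no pooled summit within 500 bp is given, read in the same way:
snRNA:U2:14B (chrX:16254592-16254681, plus strand): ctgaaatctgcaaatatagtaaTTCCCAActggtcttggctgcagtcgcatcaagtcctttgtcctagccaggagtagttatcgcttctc
snRNA:U6:96Aa (chr3R:24556008-24556097, plus strand): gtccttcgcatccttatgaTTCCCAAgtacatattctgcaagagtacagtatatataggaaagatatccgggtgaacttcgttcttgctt
snRNA:U5:38ABa (chr2L:19812065-19812154, minus strand): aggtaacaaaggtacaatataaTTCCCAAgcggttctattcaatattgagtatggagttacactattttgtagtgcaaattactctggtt
snRNA:U4:25F (chr2L:5565539-5565628, plus strand): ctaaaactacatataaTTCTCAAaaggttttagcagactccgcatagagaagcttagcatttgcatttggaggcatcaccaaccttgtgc
snRNA:U1:95Cb (chr3R:23827790-23827879, plus strand): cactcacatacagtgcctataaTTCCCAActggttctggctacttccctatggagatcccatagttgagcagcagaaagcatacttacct
snRNA:7SKb (chr3R:23432789-23432878, plus strand): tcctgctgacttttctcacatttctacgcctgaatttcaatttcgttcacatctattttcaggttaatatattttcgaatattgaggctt

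The element was not limited to the genes with a peak. In the 100 bp upstream of the 32 snRNA genes, TTCCCAA was found in 26, with its first base between positions -61 and -55 from the start of the RNA. Counting TTCTCAA as well, which was added after the sequences had been seen, 31 of 32 genes held one of these words, the exception being snRNA:7SKb. They were held by 17 of the 17 snRNA genes with a pooled summit within 500 bp and by 14 of the 15 without one. Among all other genes 3.19% held either word on either strand in the same window, and 1.66% held it on the gene's strand. TATAAA, searched in the same window, was found on the gene's strand in 2 snRNA genes, 7SKa and U6atac, at first bases -31 and -30. TATCGATA, the DNA replication-related element of fly promoters, was found upstream of 0 of the 32 snRNA and 0 of the 269 snoRNA genes on either strand, against 5.0% of other genes, and GGTCACACT, another word of fly core promoters, upstream of 0 members against 1.82% of other genes. Of the snoRNA genes 247 lay inside a host, so the bases upstream of them are mostly host gene sequence. The 32 snRNA genes are too few to show a difference from such low shares.

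Members were near an IDR summit in 34 of 301 cases (11.3%, exact Clopper-Pearson 95% interval 7.95 to 15.4%). Among all other 17863 genes the share was 33.6%, and for a summit within 500 bp of the gene's 5' end, which does not depend on gene length, it was 26.0%, against 11.3% of members. In the pooled list 121 members (40.2%, 34.6 to 46.0%) were near a summit, against 63.4% of other genes, or 54.5% by the 5' end, where members reached 38.2%. The intervals cover counting over genes only, and genes that share a host or a peak are not independent: the 34 members near an IDR summit were near 29 different peaks. Of the 34, 32 also had a summit within 500 bp in each replicate's own list, whereas 73 of the 121 in the pooled list had one in both, and 136 members had none in any list.

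With the 500 bp window, the shares of stand-alone and hosted genes had intervals that did not overlap. An IDR summit lay near 12 of 43 stand-alone genes (27.9%, 15.3 to 43.7%) and near 22 of 258 hosted genes (8.53%, 5.42 to 12.6%). In the pooled list the counts were 29 of 43 (67.4%, 51.5 to 80.9%) and 92 of 258 (35.7%, 29.8 to 41.8%). The stand-alone intervals contained the shares of other genes, 33.6% in the IDR list and 63.4% in the pooled list. The hosted intervals lay below those shares. In the IDR list the difference between the 2 classes depended on the window. With 250 bp the shares were 18.6% of stand-alone and 4.26% of hosted genes. With 1000 bp they were close, at 32.6% (14 of 43) and 30.6% (79 of 258). Shares of other genes are given for 500 bp only. The 12 stand-alone genes near an IDR summit were near 9 different peaks. Within the stand-alone genes, those outside any larger gene had an IDR summit in 11 of 27 cases (40.7%, 22.4 to 61.2%) and a pooled summit in 22 of 27 (81.5%), and those inside a gene of the opposite strand in 1 of 16 and 7 of 16. The interval for genes outside any larger gene contains the 33.6% of other genes, so the counts do not settle whether this share differs from the background. By biotype, 7 of 32 snRNA genes (21.9%, 9.28 to 40.0%) and 27 of 269 snoRNA genes (10.04%, 6.72 to 14.3%) were near an IDR summit. The snRNA interval also contained the 33.6% of other genes, and the snoRNA interval lay below it. Transfer RNA genes, another class of short genes, were near an IDR summit in 11.4% of 290 cases and near a pooled summit in 66.2%.

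**Figure D1:**
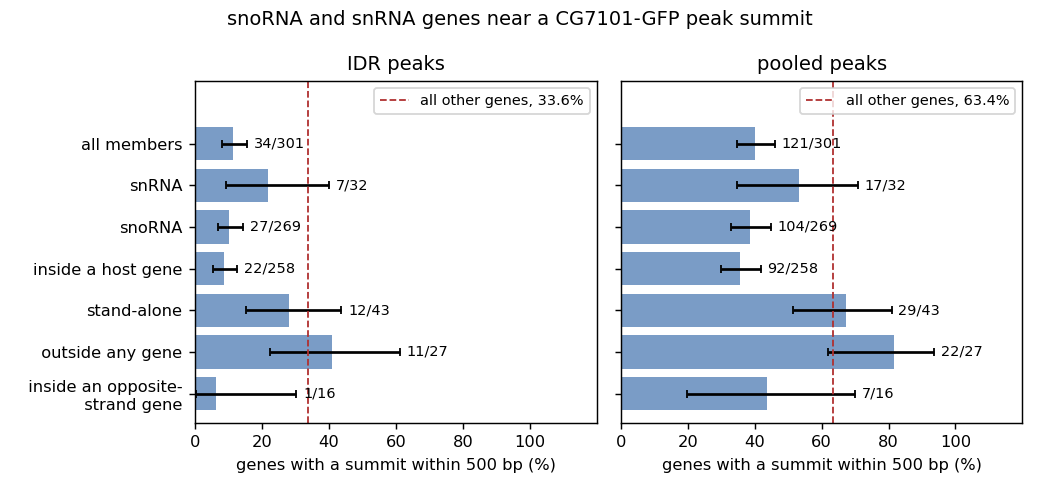
Share of snoRNA and snRNA genes with a peak summit within 500 bp (horizontal axis, percent), by class, in the IDR list (left) and the pooled list (right). Bars are shares, whiskers exact 95% intervals, the fractions beside them counts, and the dashed line the share among all other genes; the 27 genes outside any larger gene are the only class whose bar passes that line in the IDR list.

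The strongest peak at an snRNA gene lay on snRNA:7SKa (3R, 7474553 to 7474996, minus strand). Its summit at 7474793 was inside the gene, 203 bp downstream of the 5' end, in a peak from 7474590 to 7474959 with signal 465 in the pooled list, 277 in replicate 1 and 171 in replicate 2. It ranked 1362 in the IDR list. The nearest start site of another gene, CG1142, was 1012 bp away. The other annotated 7SK gene, snRNA:7SKb, shared 46.9% of aligned bases with it, lay inside CG4374 on the opposite strand and had no summit within 500 bp in any list.

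Both U6 genes with a summit, snRNA:U6:96Ab and snRNA:U6:96Ac, shared 1 IDR peak of signal 235 (145 in replicate 1, 88.4 in replicate 2). U6 is the snRNA at the catalytic centre of the spliceosome, and its 3 gene copies stand in a row on 3R. The shared summit at 24557074 fell between the copies, 276 bp past the end of U6:96Ab and 141 bp upstream of U6:96Ac, so the position does not assign the peak to either with certainty. A weaker pooled summit, of signal 69.9, lay inside U6:96Ac, with summits inside the gene in replicate 1 (42.0) and replicate 2 (22.4). The third copy, snRNA:U6:96Aa, inside an intron of Esyt2, had no summit in any list within 500 bp, although the 3 RNAs are 100% identical and the 100 bp upstream were 56.9 to 61.8% identical.

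Of the U2 genes, whose RNA pairs with the intron branch site, 1 of 6 was near an IDR summit. This was snRNA:U2:34ABb (2L, 13215839 to 13216030), with signal 241 in the pooled list, 111 in replicate 1 and 135 in replicate 2, and with its summit inside the gene at 189 bp from the 5' end. Its neighbour snRNA:U2:34ABa had a pooled summit of signal 85.8 (33.1 and 54.3 in the replicates), and snRNA:U2:34ABc shared a summit of 41.2 with snRNA:U5:34A, with a summit near them in replicate 2 and none in replicate 1. The other 3 copies, U2:14B, U2:38ABa and U2:38ABb, had none in any list.

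Of the 5 U1 genes, whose RNA recognises the 5' splice site, snRNA:U1:95Ca (3R, 23859467 to 23859630) had an IDR peak, with signal 165 in the pooled list, 116 in replicate 1 and 51.9 in replicate 2, and its summit lay 15 bp upstream of the 5' end. The nearest start site of a larger gene was 30407 bp from that summit. snRNA:U1:21D had a pooled summit inside the gene with signal 86.8 (49.3 and 34.1 in the replicates). snRNA:U1:82Eb was listed in replicate 2 alone with 41.2, and U1:95Cb and U1:95Cc, both in an intron of CG34355, had none. The U1 RNAs were 98.2 to 100% identical between copies, while the 100 bp upstream were 55.9 to 64.8% identical.

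snRNA:U5:63BC (3L, 3090801 to 3090923), a U5 gene whose RNA contacts exon ends during splicing, had an IDR peak with its summit inside the gene and signal 226 (120 and 100 in the replicates). Of the other 6 U5 genes, snRNA:U5:35D had a pooled summit of 127 (60.05 and 73.5), but that summit lay 62 bp from a start site of ND-B17, a subunit of respiratory complex I, and 417 bp from the snRNA gene. snRNA:U5:23D was listed in replicate 2 alone with 16.1, and U5:14B, U5:38ABa and U5:38ABb had no summit in any list. snRNA:U4:39B (2L, 21215036 to 21215178), which encodes the U4 partner of U6, was the only snRNA gene inside a host with an IDR summit. Its peak had signal 191 (112 and 79.1), the summit was inside the gene 34 bp from its 5' end, and the start site of its host Atg18b, an autophagy gene, was 5428 bp away and had a pooled peak of 39.0 and no IDR peak. The other U4 genes, U4:25F and U4:38AB, had no summit in any list.

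The genes of the minor spliceosome and of U7 had weaker, pooled-only peaks. Pooled signals were 72.3 at snRNA:U12, 60.3 at snRNA:U11 and 36.0 at snRNA:U6atac, each with its summit inside the gene or at most 25 bp from it. U11 and U12 had a summit within 27 bp of the gene in both replicates, whereas at U6atac the summit in replicate 2, of signal 17.2, was 277 bp from the gene. snRNA:U4atac, inside cno, had none. snRNA:U7 had a pooled signal of 65.8 with the summit 72 bp from its 5' end, 2 bp past the end of the gene. snRNA:LU, a separate kind by its symbol and in an intron of FASN2, had a pooled signal of 56.0.

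**Figure D2:**
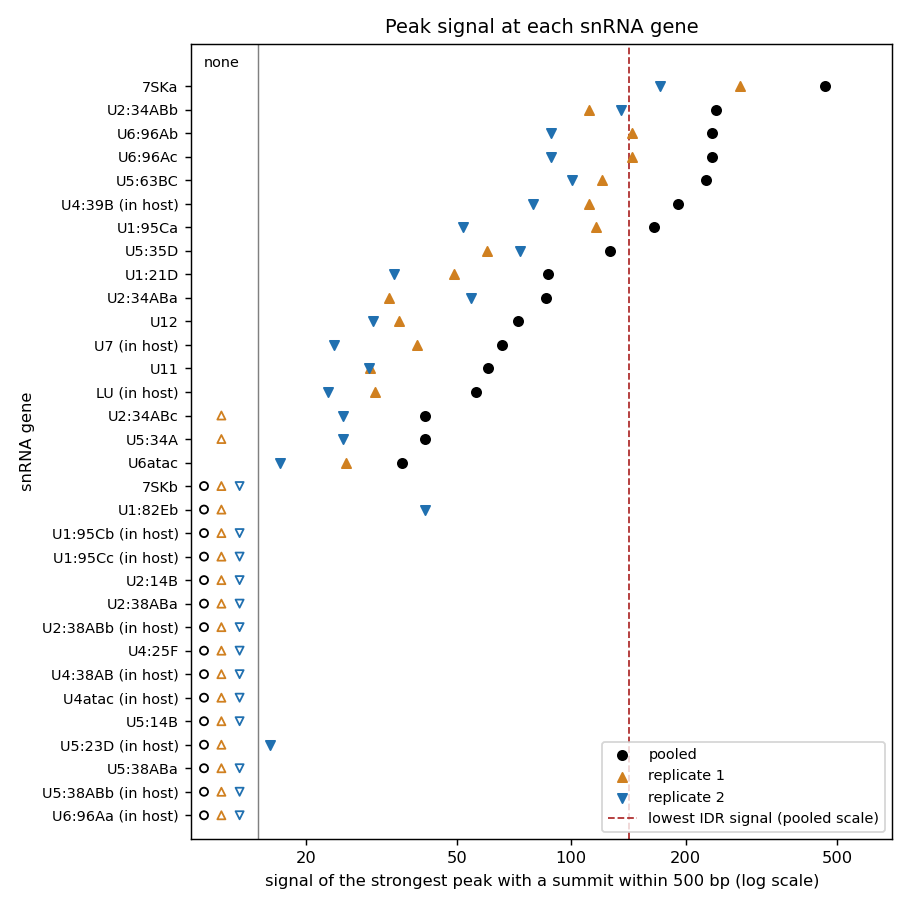
Signal of the strongest peak with a summit within 500 bp of each of the 32 snRNA genes (horizontal axis, log scale), in the pooled list, replicate 1 and replicate 2; open symbols left of the grey line mark lists with no such summit, and the dashed line is the lowest IDR signal, which applies to the pooled values only. Pooled values run from 36.0 at U6atac to 465 at 7SKa, and 15 genes have no pooled summit.

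The snRNA peaks were mostly on the genes themselves. The strongest summits of the 17 snRNA genes with a pooled summit came from 15 different peaks. They lay inside the gene in 9 genes and within 200 bp of its 5' end in 13. In 1 of the 17 genes, U5:35D, the summit was within 200 bp of a start site of a larger gene. The summit at U2:34ABa was 218 bp from a start site of CG15482 (350 bp in replicate 1 and 188 bp in replicate 2). The summit at U6atac was 432 bp from a start site of CG42819. Near-identical copies limit these values. In 23 of the 32 snRNA genes more than 50% of the 31-base words of the gene occurred more than once on the main arms. The share was 100% in U1:95Ca, U2:34ABb, U6:96Ab and U6:96Ac, so reads inside the RNA cannot be assigned to 1 copy with certainty. The flanks differ: within 500 bp on either side the recurring share was 1.3% at U1:95Ca, 2.1% at U2:34ABb and 0.0% at 7SKa and U4:39B, but 54.5% at U2:34ABc. No source used here says how the authors treated reads with several matches, and its part in the result was not tested. Without the 14 snRNA genes whose sequence recurred in over 10% of words, gene and flanks together, 3 of 18 had an IDR summit.

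Among the 22 stand-alone snoRNA genes, 6 were near an IDR summit, and these 6 were near 4 peaks. snoRNA:Psi18S-176, a guide for pseudouridylation of 18S rRNA by its symbol, had the strongest, with signal 496 (258 in replicate 1 and 256 in replicate 2) and a summit inside the gene 27 bp from its 5' end. The nearest start site of a larger gene, lncRNA:CR44805, was 540 bp away. The summit near snoRNA:185 had signal 465 (282 and 188) and lay 190 bp upstream of the snoRNA but 118 bp from the tRNA gene tRNA:Glu-TTC-1-5, which was the nearer. A summit of signal 377 (201 and 176) lay 128, 333 and 497 bp upstream of 3 snoRNA genes in a row, the farthest being snoRNA:Psi28S-1153, and 362 bp from a start site of CG13334. The peak near snoRNA:Or-ACA6, which lies inside egr on the opposite strand, had signal 146 (102 and 45.0) and a summit 407 bp upstream.

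The pooled list added 9 stand-alone snoRNA genes. The summits near snoRNA:Psi28S-3342 (signal 85.4), snoRNA:Psi18S-301 (97.6) and snoRNA:Psi28S-2622 (118) lay 21, 63 and 78 bp upstream of the 5' end, the last of them 89 bp from the start of sncRNA:CR43701, and that near snoRNA:Or-aca4 (110) lay inside the gene. Of the 12 stand-alone members of either biotype near an IDR summit, 8 had neither a tRNA gene nor a start site of a larger gene within 500 bp of that summit, and so did 20 of the 29 near a pooled summit. In 8 of the 12 and 23 of the 29, the member itself was the nearest annotated small RNA gene to the strongest summit.

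U3 snoRNA, needed for cleavage of the ribosomal RNA precursor, is encoded by stand-alone genes whose promoters resemble those of snRNA genes. All 3 U3 genes held TTCCCAA or TTCTCAA, each with its first base at -59, within the range of the snRNA genes. Their peaks were weak, and recurring sequence limits these values too. Counted as for the snRNA genes, the recurring share of the gene was 100% in snoRNA:U3:54Aa and snoRNA:U3:54Ab. It was 37.7% in snoRNA:U3:9B. Within 500 bp on either side the shares were 28.3% at U3:54Aa, 29.1% at U3:54Ab and 0.2% at U3:9B. The part of recurring sequence in the weak peaks was not tested. snoRNA:U3:9B had a pooled signal of 73.7 (42.6 and 40.8), snoRNA:U3:54Ab had 50.4, with a summit in replicate 2 and none in replicate 1, and with a tRNA gene 182 bp from the summit, and snoRNA:U3:54Aa was listed in the replicates alone at 20.6 and 19.3. snoRNA:Me18S-A1806, stand-alone and with the element at -66, had a pooled signal of 48.6 and a summit 17 bp upstream. snoRNA:Me18S-C1968, in an intron of Swim with the element at -60, had an IDR peak on the gene itself, with signal 164 (76.1 and 83.8). The start site of Swim was 4158 bp from that summit. In all, 40 members had one of these short words in the 100 bp upstream, of which 8 were near an IDR summit and 24 near a pooled summit. The shares of all other genes were 33.6% and 63.4%. Among stand-alone members, an IDR summit lay near 6 of the 24 with a word and 6 of the 19 without one. In the pooled list these were 17 of 24 and 12 of 19, so the word did not set apart the genes near a summit. Not all of the words lie where the snRNA genes have the element: the word starts at -9 in scaRNA:PsiU2-38.40.42 and at -12 in snoRNA:Psi28S-1135a. Hosted snoRNA genes had a word on their own strand in 2.02% of cases, near the 1.66% of other genes.

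**Figure D3:**
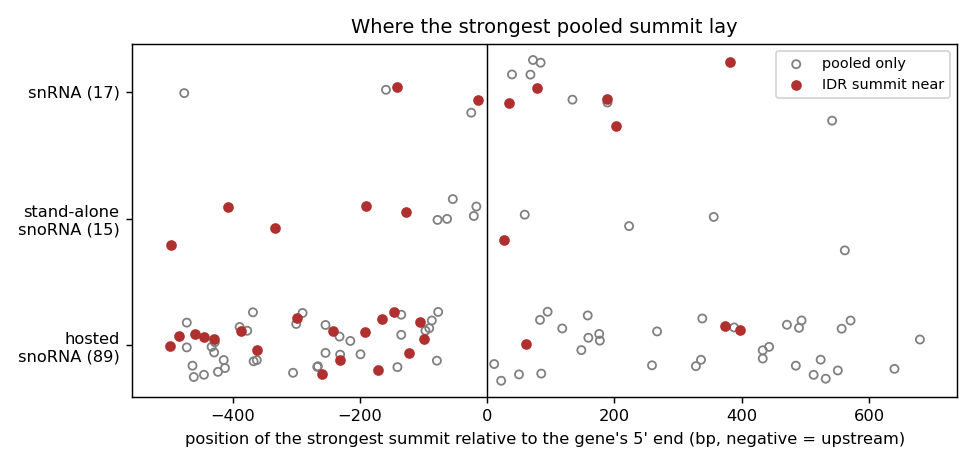
Position of the strongest pooled summit relative to the 5' end of the gene (horizontal axis, bp, negative upstream) for the 17 snRNA, 15 stand-alone snoRNA and 89 hosted snoRNA genes with a pooled summit within 500 bp; filled points also have an IDR summit within 500 bp, and the vertical jitter has no meaning. Hosted snoRNA genes with an IDR summit lie mostly to the left of 0, with 18 of 21 summits upstream.

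For hosted genes most of the nearby IDR peaks were at the host's start site rather than at the small RNA gene. An IDR summit lay within 500 bp of a start site in 77 of 97 hosts (79.4%, 70.0 to 86.9%), against 33.3% of all protein-coding genes, and a pooled summit in 92 of 97. Of the 258 hosted members, 222 sat in a host with such an IDR peak, yet 20 of these 222 had an IDR summit within 500 bp of themselves, and 60 of the 77 hosts had no member that near to an IDR summit. Of the 22 hosted members near an IDR summit, the summit was within 200 bp of a host start site in 16, and these 16 summits were nearer to the host start than to the member's own 5' end.

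The share of hosted members near an IDR summit was highest close to the host start. It was 16 of 32 for members whose 5' end was within 500 bp of the nearest host start site, 0 of 48 from 501 to 1000 bp, 2 of 78 from 1001 to 2000 bp and 4 of 100 beyond that. The midpoints of 14 of the 239 intronic members (5.86%) were within 500 bp of an IDR summit, beside 7.36% of all bases in the introns of their hosts and 4.55% of all bases on the main arms. In the pooled list the shares were 30.96% of midpoints, 29.5% of host intron bases and 18.2% of all bases.

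**Figure D4:**
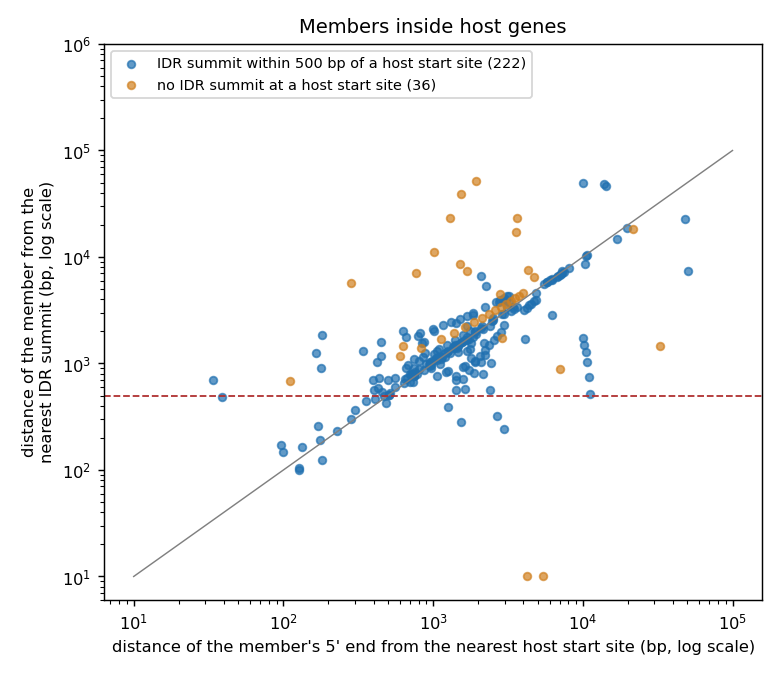
Distance of each of the 258 hosted members from its nearest IDR summit (vertical axis, bp, log scale, values under 10 drawn at 10) against the distance of its 5' end from the nearest host start site (horizontal axis, bp, log scale). Blue points are the 222 members in hosts with an IDR summit at a start site and orange points the other 36; the grey line marks equal distances, along which many points lie, and the dashed line is 500 bp.

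Among the hosts with a start-site peak, ribosomal protein genes had the highest median signal of the kinds compared. All 29 hosts with the symbol of a cytosolic ribosomal protein gene had an IDR peak at a start site (100%, 88.1 to 100%), with signals from 196 to 1628 and a median of 629. Ribosomal protein genes without a member, paralogues and genes named as like them included, had one in 53 of 64 cases (82.8%, 71.3 to 91.1%) and a median signal of 603, and the intervals of these shares overlapped. Hosts that encode other proteins had one in 43 of 61 cases (70.5%, 57.4 to 81.5%), against 32.7% (32.0 to 33.5%) of the other 13791 protein-coding genes without a member, while the median signals of those with a peak were 288 and 286. Outside the ribosomal protein genes the intervals of the shares did not overlap, whereas the medians differed by little. Expression of the hosts was not measured here, and the number of start sites per gene was not matched. The part of either in the result was not tested.

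The strongest peak near a hosted member belonged to RpL14, a protein of the large ribosomal subunit. Its signal was 1628 (871 in replicate 1 and 771 in replicate 2), its summit was 32 bp from a host start site, and it lay 499 bp from snoRNA:U49:66Da, just inside the window. Next came Uhg4, with signal 1260 (675 and 596), whose summit was 146 bp from snoRNA:Psi28S-2949 and 459 bp from snoRNA:Or-aca5. RpL28 followed with 1188 (701 and 492) near snoRNA:Or-CD11a, RpL17 with 1095 (662 and 428) near snoRNA:Psi28S-1232, and RpS29 with 629 (349 and 281) near snoRNA:Psi18S-1275. In both replicates RpL14 had the highest of these 5 signals and RpS29 the lowest.

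Other hosts with a peak at the start and a member within reach were Uhg2 with 507 at snoRNA:Me18S-A1576, RpS12 with 502 at snoRNA:Me28S-A774b, RpL10Ab with 388 at snoRNA:Psi18S-920 and RpS6 with 354 at snoRNA:Or-aca2. Uhg5 followed with 371 at snoRNA:Me18S-C1366 and snoRNA:Me28S-C3227a. Sf3b3, a subunit of the U2 snRNP, had 247 at snoRNA:Psi18S-1086, RpL15 had 196 at snoRNA:Me18S-G1358c, CG43051 had 165 at snoRNA:CG43051-a, and Uhg3 had 143 at snoRNA:Me28S-C2645a. All of these summits were within 100 bp of the host start. The largest signal at any host was at Stt3A, an oligosaccharyltransferase subunit, with 1730 (1000 and 728). Its summit was 391 bp upstream of the host start, and the 3 members of Stt3A lay at least 1576 bp from a start site.

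The 6 hosted members with an IDR summit away from the host start included U4:39B and Me18S-C1968, described above. snoRNA:Or-CD4 in Uhg5 (signal 235), snoRNA:hts-a in hts (178) and snoRNA:Psi18S-525a in Arpc2 (143) had summits 3050, 3237 and 871 bp from the host start. The summit near Or-CD4 lay past the end of Uhg5, which is 2898 bp long. Of the 22 hosted members near an IDR summit, 16 had it within 200 bp of a host start and 17 of any larger gene's start.

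The 5 hosts with the most members were not the most strongly bound. Arpc2, a subunit of the Arp2/3 actin nucleator with 17 members, had a start-site signal of 400, dom, a chromatin remodeller with 15, had 269, RpS5a with 14 had 595, and Uhg5 with 11 had 371. Uhg1, with 16 members, had no IDR summit within 500 bp of a start site: its nearest was 568 bp away, and its pooled peak had signal 134, just under the lowest IDR signal of 142. Just outside the 500 bp window of the members themselves were snoRNA:Psi28S-2648 in RpL36A at 501 bp, snoRNA:Me18S-C1096 in RpL3 at 506 bp, the stand-alone snoRNA:Or-CD13 at 521 bp and snoRNA:Or-CD9b in Nop60B at 522 bp. Just inside were snoRNA:Or-CD11a at 485 bp and snoRNA:Psi28S-1153 at 497 bp.

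**Figure D5:**
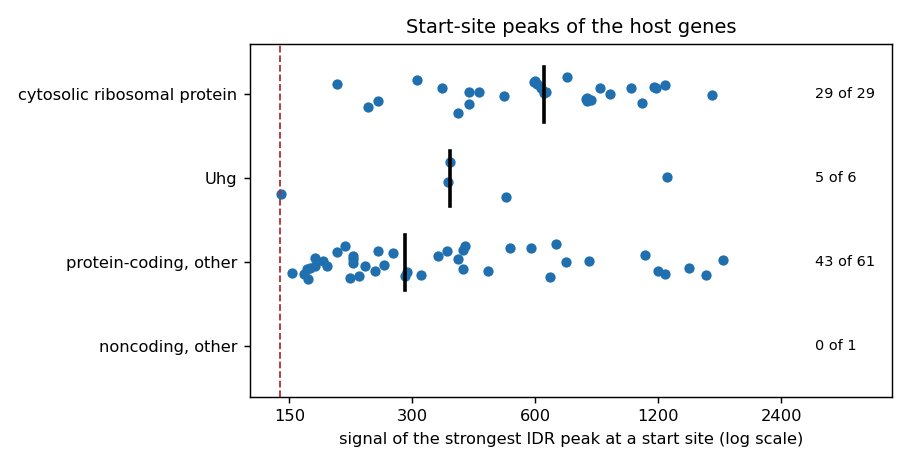
Signal of the strongest IDR peak within 500 bp of a start site of each host (horizontal axis, log scale), by kind of host; each point is 1 host, black bars are medians, the dashed line is the lowest IDR signal, and the counts at the right give hosts with such a peak of all hosts of the kind. The 29 ribosomal protein hosts run from 196 to 1628.

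The summits at the hosts' start sites are shown because some held TATCGATA. Their windows differ from the 100 bp upstream of the snRNA genes, where TATCGATA was not found. Within 100 bp of the summit, 10 of the 77 host summits (13.0%) held it, 7 of them among the 29 at ribosomal protein hosts, beside 8.68% of the 4056 IDR summits within 500 bp of any start site of a larger gene. GGTCACACT was held by 5 of the 77 (6.49%), beside 4.66%. Of the 9 different IDR summits near stand-alone members, 0 held either word. Among all 6486 IDR summits the shares were 5.69% for TATCGATA and 2.93% for GGTCACACT, so 9 summits are too few to show a difference. These regions reach 60 bases to each side of the summit, on the host's strand in dm6 (RefSeq Release 6), with TATCGATA in capitals:
RpL28 (chr3L:3222966-3223086, minus strand): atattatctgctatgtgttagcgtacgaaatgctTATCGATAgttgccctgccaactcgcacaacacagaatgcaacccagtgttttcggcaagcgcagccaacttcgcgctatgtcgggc
RpS29 (chr3R:9777976-9778096, plus strand): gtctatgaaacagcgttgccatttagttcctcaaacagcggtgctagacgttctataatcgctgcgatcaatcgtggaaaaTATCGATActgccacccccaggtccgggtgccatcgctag
RpS12 (chr3L:13023288-13023408, plus strand): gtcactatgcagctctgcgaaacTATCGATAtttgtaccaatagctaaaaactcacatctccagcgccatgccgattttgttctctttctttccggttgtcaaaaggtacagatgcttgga
RpL10Ab (chr3L:11822759-11822879, plus strand): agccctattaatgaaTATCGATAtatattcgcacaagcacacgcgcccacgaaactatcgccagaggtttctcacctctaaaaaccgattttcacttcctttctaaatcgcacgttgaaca

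The kinds of snoRNA guide, read from the symbols, had overlapping intervals for the share near an IDR summit. These were 8 of 77 genes named for 2'-O-methylation (10.4%, 4.59 to 19.4%), 8 of 106 named for pseudouridylation (7.55%, 3.31 to 14.3%) and 5 of 21 orphans without a known target (23.8%, 8.22 to 47.2%). Of the 16 genes of scaRNAs, guides for snRNAs in Cajal bodies, 0 were near an IDR summit (0 to 20.6%) and 2 near a pooled one.

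Listed protein genes of the same pathways had an IDR summit at a start site more often than protein-coding genes at large. The list was chosen with earlier results of these data known, so this is a description only. Of 59 matched genes from a list of 61, 39 had an IDR summit within 500 bp of a start site (66.1%, 52.6 to 77.9%, against 33.3%), and all 59 had a pooled summit. The counts were 4 of 4 for the box C/D core proteins, 3 of 4 for the box H/ACA core, 6 of 8 for snRNA transcription, 10 of 14 for Integrator, the complex that cuts snRNA 3' ends, 5 of 12 for Sm and Lsm proteins, 5 of 8 for snRNP proteins and 6 of 9 for assembly and Cajal body factors. Of the box C/D genes, hoip had its summit 461 bp from its start site and none within 500 bp in replicate 1. In most of these genes another gene's start site lay within 1 kb, and among the 9 without one, 5 had an IDR summit. So few genes cannot show a difference from 33.3%, and the part of neighbouring start sites in the result was not tested. Fib, Nop60B and Prp8 of the list are also hosts counted above.

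The strongest was IntS11, the Integrator endonuclease, with signal 2080 (1005 in replicate 1 and 1084 in replicate 2). Brf, a subunit of the RNA polymerase III initiation factor TFIIIB, had 1356 (744 and 589), IntS6 had 1121 (669 and 459), and bin3, the fly relative of the 7SK capping enzyme, had 763 (545 and 208). The 10 strongest also held TfIIA-L with 672, snRNP-U1-C with 570, IntS4 with 518, IntS10 with 504, IntS9 with 496 and LSm1, which acts in mRNA decay, with 453. The summit at IntS6 was 391 bp from its start site. Of these 10, only IntS4 had no other gene's start site within 1 kb, so the position does not assign the other peaks to the named gene with certainty. Of the 3 subunits that read the PSEA, Pbp45 had an IDR peak of 219 (118 and 108), while Pbp95 and Pbp49 had pooled peaks of 56.0 and 70.7. Among guide-particle proteins, NHP2 had 383, nop5 330, Fib, the methyltransferase, 315, and Nop60B, the pseudouridine synthase and itself a host of 7 members, 215. Gar1 had a pooled peak of 47.8 and no IDR peak. Larp7, the 7SK-binding protein, had 375 and coil, the Cajal body coilin, 255.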

How the data were processed

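Chromatin from 2 biological replicates of whole adult females was profiled. Per the deposited descriptions, the authors called peaks in each replicate and in the pooled replicates against a control, which was not analysed here, and derived the IDR list from them. No source used here names the aligner, the peak caller or the threshold of the IDR step. Peak signal is as deposited by the authors, as is the −log10 of the q value, which was not used. The IDR peaks are the 6486 strongest of the pooled list, and 106 repeat an interval with another summit; each summit was kept.

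Coordinates are dm6 per the labels and count from 1. Genes came from Ensembl release 115 without transposable elements, and sequence from RefSeq Release 6. A host contains the member on the same strand and is not itself a small RNA gene. Recurrence counted 31-base words on both strands. Identities came from pairwise alignment. The members and gene lists were chosen with earlier results of these data known. With 1 group no test was made, and counts carry exact 95% intervals. Named were all snRNA genes, stand-alone and the 20 strongest hosted members near an IDR summit, members at the window's edges, their hosts, the 5 hosts with most members and the 10 pathway genes with the strongest peaks; other names were chosen after their values were seen. Window counting was checked on simulated summits. Software was Python 3.11.15 with biopython 1.88, pandas 2.3.3, numpy 2.4.6, matplotlib 3.10.9 and scipy 1.17.1. One hosted member is counted but not reported by name here. Alternatives are given in the closing section.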

Additional observations from a re-analysis of the deposited data

How the results depend on the processing

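Of 61 alternative settings, 39 left a count within 1.5 times of the reported one and 22 did not. With a window of 250 bp, the IDR list gave 19 members, 11 hosted and 13 snoRNA genes, and the pooled list 73 members. With 1000 bp these were 93, 79, 85 and 203, and the shares of stand-alone (14 of 43) and hosted genes (79 of 258) were close. Where the peak itself had to overlap the gene they were 12, 5, 7 and 59, and 7 stand-alone genes. The stronger peaks of each list alone (3243 IDR, 15000 pooled) gave 20 members, 14 hosted, 6 stand-alone and 1 snRNA genes, 57 in the pooled list, and 25 pathway genes. Protein-coding hosts alone made 88 members stand-alone, 19 of them near an IDR summit. Leaving out recurring sequence gave 3 snRNA genes, and leaving out pathway genes with a neighbouring start site within 1 kb gave 5 of 9, the fewer genes being part of both settings.

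With the equally long list of a single replicate in place of both, the counts ranged from 33 to 36 for all members, 22 to 23 hosted, 11 to 13 stand-alone, 7 to 7 snRNA, 26 to 29 snoRNA, 103 to 125 pooled and 36 to 41 pathway genes. The median rank of the 29 IDR peaks near members was 2291 in the IDR list and 2169 to 2459 in the replicates. No paired analysis was possible because there is 1 group and no test. Peak lists hold no read counts, so what depth limits is unknown.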
